A study of Mus musculus with 6 samples.

Results

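The genes described here encode the replication-dependent histones, which package newly copied DNA. Their members were all array probes whose gene symbol began with H2ac, H2bc, H3c or H4c followed by a number, or was one of H1f1 to H1f5, with older Hist symbols read as the same genes. This gave 55 probes of 50 genes, out of 25697 probes and 16593 named genes. The linker histone H1 had 5 probes, H2A had 14, H2B had 14, H3 had 12 and H4 had 10. Of the 50 genes, 43 lay on chromosome 13 and 7 on chromosome 3.

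Gene expression had been measured on 6 Illumina bead arrays, 1 per condition, each hybridised with 1 pool of RNA from 6 animals. All animals were adult female mice, of strain C57Bl6 in the labels and C57BL6/J in the methods, with no genetic alteration given in the labels. The nerve arrays held control sciatic nerve of the right side, and injured left nerve from day 1 and from day 5 after transection, with the segments on both sides of the cut pooled. The other arrays held control dorsal root ganglia (DRG), DRG from day 5 and spinal cord from day 5. The labels call the controls normal, while the methods describe them as sham-operated. One array has day 5 as its source but a title that ends with a day 1 code, and is used here as day 5 nerve.

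Replication-dependent histone genes are transcribed mainly in S phase, when DNA is copied, and their clustered copies encode nearly identical proteins. H2A and H2B form a dimer, and H3 and H4 form the tetramer at the centre of the nucleosome, the spool around which DNA is wound, while H1 binds the DNA between nucleosomes. Most of their mRNAs end in a stem-loop and not in a poly(A) tail, although polyadenylated transcripts of some of these genes are known from differentiated cells. The amplification kit named by the study copies RNA from the poly(A) tail, and whether the signals came from polyadenylated histone transcripts was not tested. In the mouse, the main cluster lies on chromosome 13 and holds many H2A and H2B genes side by side, transcribed away from a shared region.

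Of the 46 genes measured for which a promoter was found, 5 H2A and H2B pairs had starts at most 250 bases apart on opposite strands. The regions between the starts are shown for the 4 pairs in which both genes gave a detected signal in the nerve, because the paired genes differed from control in opposite directions there. They come from RefSeq promoter sequences of build GRCm38.p6, are printed 5′ to 3′, and capitals mark the CCAAT box (CCAAT, or ATTGG on the printed strand where the box lies on the other) and the octamer (ATTTGCAT on either strand).

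H2ac7 and H2bc7, chr13:23574208-23574380 (+ strand): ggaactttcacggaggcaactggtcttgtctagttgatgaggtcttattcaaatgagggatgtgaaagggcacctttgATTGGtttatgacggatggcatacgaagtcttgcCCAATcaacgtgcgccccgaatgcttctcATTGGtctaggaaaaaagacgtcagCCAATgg
H2ac11 and H2bc11, chr13:22042950-22043197 (- strand): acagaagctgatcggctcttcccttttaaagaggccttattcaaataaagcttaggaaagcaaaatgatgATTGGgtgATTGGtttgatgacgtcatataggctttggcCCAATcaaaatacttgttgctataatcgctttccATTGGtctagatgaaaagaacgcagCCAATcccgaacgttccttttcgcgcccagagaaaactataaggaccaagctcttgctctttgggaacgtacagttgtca
H2ac12 and H2bc12, chr13:22035644-22035820 (- strand): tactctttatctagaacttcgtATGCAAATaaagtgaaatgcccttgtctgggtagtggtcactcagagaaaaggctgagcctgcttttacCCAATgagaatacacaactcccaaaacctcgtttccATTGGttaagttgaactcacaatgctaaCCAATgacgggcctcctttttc
H2ac15 and H2bc15, chr13:21753913-21754075 (- strand): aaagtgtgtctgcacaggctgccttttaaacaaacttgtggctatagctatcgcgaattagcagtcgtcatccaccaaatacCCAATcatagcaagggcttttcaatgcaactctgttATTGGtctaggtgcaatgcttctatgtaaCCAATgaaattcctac

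The H2ac11 region held 5 CCAAT boxes, the H2ac7 region 4, and the H2ac12 and H2ac15 regions 3 each. The H2ac12 region held 1 octamer and the other regions printed held 0. The fifth pair, H2ac8 and H2bc8, had 179 bases between its starts, with 2 CCAAT boxes and 1 octamer.

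Promoters were found for 46 of the 50 genes, as 47 sequences, and the counts below are of sequences. None was found for H2bc4, H3c1, H3c7 or H4c14. H2bc6 had an extra sequence, and its sequences differed in the octamer. In the 250 bases before the start, on either strand, CCAAT occurred in 14 of 14 H2A, 12 of 12 H2B, 5 of 5 H1, 6 of 7 H3 and 2 of 9 H4 promoters, against 33.8% of all 32851 promoters. ATTTGCAT occurred in 6 of 14 H2A and 7 of 12 H2B promoters and in 0 of the H1, H3 and H4 promoters, against 1.60% of all promoters. TATAAA occurred in 24 of 47 histone promoters, against 12.4% of all. The CCAAT box occurred in every H2A and H2B promoter found. In the 5 head-to-head pairs, the 250 bases before each start cover the region between the starts. The same DNA is therefore counted for both classes there, so their counts are not independent. A match of letters is a description of the sequence and does not show that a factor binds there.

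Signals were scaled so that all arrays had the same median. A probe counted as detected where its deposited detection p-value was under 0.05. Undetected signals were set to the array's floor, the lowest detected signal, which lay between 116.8 and 123.9. A probe was called higher or lower if its floored signals lay 2-fold or more apart and the brighter of the arrays detected it. Each condition had 1 array, so no difference could be tested or checked in a replicate. The 95% intervals given here come from the beads of a probe, whose standard error was 3.07 to 9.53% of the signal over detected histone probes, and so they hold technical error only. Background was not subtracted, so folds of dim probes are drawn toward 1. In bulk samples, fewer cells of a type and less RNA per cell cannot be told apart.

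The labelled tissues were checked against markers. All 5 probes of the matched nerve markers Mbp and Pmp22, both myelin genes, were detected on every array, and their summed signal was 113331 in control nerve, 102569.9 on day 1, 58860.0 on day 5, 63243 in control DRG, 55235 in day 5 DRG and 70904 in the cord, so their detection did not set the nerve apart from the other tissues. All 6 probes of DRG sensory neuron markers were detected in control DRG, where their summed signal was 29712 against 748 in control nerve. Spinal cord markers were not limited to the cord. The transporter gene Slc32a1 of inhibitory neurons gave 11208 in the cord, 556 in day 1 nerve and 1026 in control DRG, and 97.0, 115 and 106 in control nerve, day 5 nerve and day 5 DRG. Olig1, an oligodendrocyte gene, gave 12080.1 in the cord, 901 in day 1 nerve, 409 in day 5 nerve and 967 in control DRG, against 106 in both control nerve and day 5 DRG. The summed signal of the 7 cord marker probes was 30476 in the cord, 2366 in day 1 nerve, 2926 in control DRG and 848 to 1123 on the other arrays. The part of cord RNA in comparisons with day 1 nerve or control DRG was not tested.

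Of the 55 histone probes, 41 were detected on at least 1 array, 30 on all 6 and 14 on none. H2A and H2B each had 12 detected probes, H3 had 7, H4 had 8 and H1 had 2. Each array detected 32 to 36 histone probes. The sequences of the probes were not used here, so how many near-identical transcripts each of them reads was not resolved, and probes with similar patterns may read the same RNA.

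**Figure D1:**
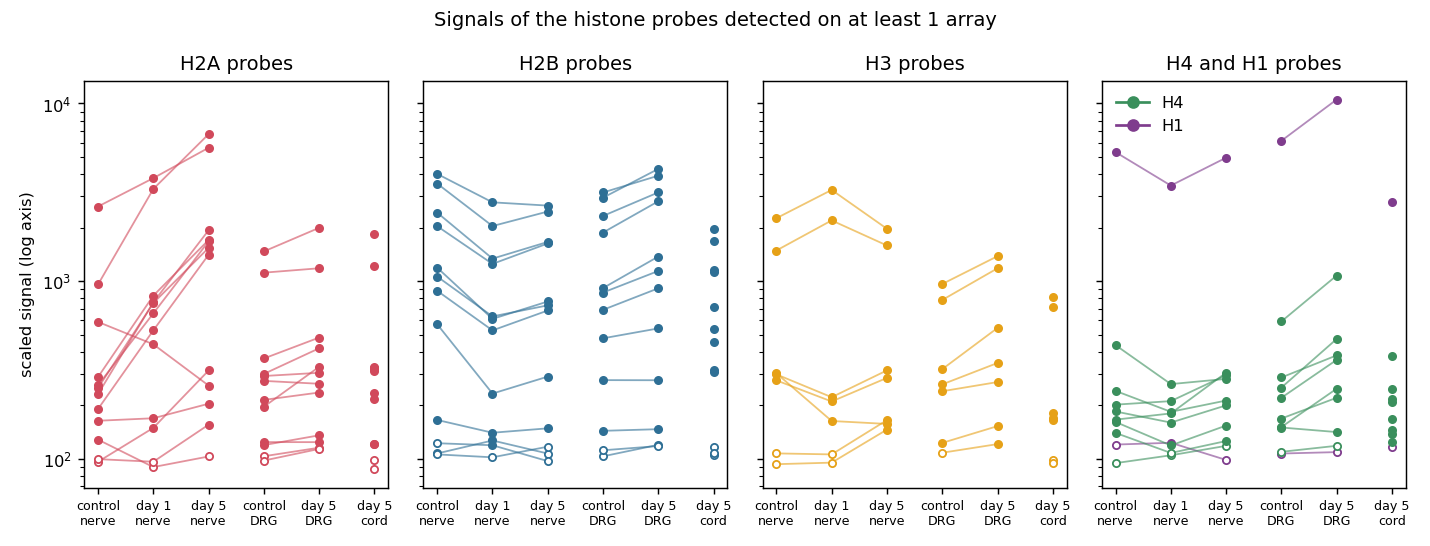
Scaled signal (log axis) of the 41 histone probes detected on at least 1 array, by array and histone class; each point is 1 probe on 1 array, filled where detected and open where not, and lines join the nerve arrays and the DRG arrays. Most H2A probes are highest in day 5 nerve, while most H2B and H4 probes are highest in day 5 DRG.

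In the injured nerve, most detected H2A probes were higher and most detected H2B probes lower than in control nerve. On day 1, 6 histone probes were at least 2-fold higher, all of them H2A, and 1 was lower, an H2B probe. On day 5, 8 were higher, all H2A as scaled here, and 1 was lower, also H2A. Among 36 histone probes detected in either array on day 1, 6 higher stand beside 5.71% of all 14841 probes, and 1 lower beside 3.13%. On day 5, 8 higher of 36 stand beside 5.66% of all 14637 probes, and 1 lower beside 4.55%. The median log2 difference over all detected histone probes was -0.22 on day 1 and -0.01 on day 5, against -0.01 and -0.02 over all probes, and the classes differed in sign. By the bead intervals, 9 of the 30 probes detected on both arrays lay above control and 17 below on day 1, beside 29.1% and 27.9% of all probes. On day 5 it was 10 above and 11 below of 31, beside 27.5% and 29.6%. Both comparisons use the same control array, so an unusual signal on it would enter both.

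Among the histone probes, those of H2A gave the largest differences. H2ac10 gave 231 in control nerve, 759 on day 1, 1933 on day 5, 292 in control DRG, 304.5 in day 5 DRG and 313 in the cord. H2ac7 gave 190.5, 528, 1407.5, 214, 236 and 216 on the same arrays in that order. For both genes the 4 arrays other than injured nerve lay close together, and day 5 nerve was the highest. H2ac10 was 3.29-fold higher on day 1 (95% interval 2.84 to 3.80) and 8.37-fold on day 5 (7.28 to 9.63), and H2ac7 was 2.77-fold (2.38 to 3.22) and 7.39-fold higher (6.13 to 8.90).

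H2ac24 gave 957 in control nerve, 3301 on day 1, 6719 on day 5, 1115 and 1181 in control and day 5 DRG, and 1216 in the cord. H2ac22 gave 259.6, 658, 1673.5, 274, 264 and 321. H2ac24 was thus 3.45-fold (2.90 to 4.11) and 7.02-fold higher (5.97 to 8.25) on days 1 and 5, and H2ac22 2.53-fold (2.17 to 2.97) and 6.45-fold (5.45 to 7.63). Neither differed between the DRG arrays by as much as its difference between nerve arrays. H2ac12 gave 250.1, 752, 1538, 196, 329 and 235, and H2ac15 gave 288, 828, 1703.5, 300.1, 418.5 and 323. H2ac12 was 3.01-fold (2.49 to 3.63) and 6.15-fold higher (5.17 to 7.31), and H2ac15 2.87-fold (2.43 to 3.40) and 5.91-fold (5.00 to 6.98). In these 6 genes every injured nerve signal lay above the signals of all arrays outside the injured nerve, the cord array included.

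The other H2A members behaved less alike. H2ac11 was not detected in control nerve (96.1, under the floor) and gave 149 on day 1, 314 on day 5, 124 in both DRG arrays and 121.5 in the cord. It was at least 2.53-fold higher on day 5. H2ac20, on chromosome 3, gave 2629.5 in control nerve, 3799 on day 1, 5632 on day 5, 1469 and 1995 in control and day 5 DRG, and 1852 in the cord. Its fold was 1.44 (1.28 to 1.64) on day 1 and 2.14 (1.90 to 2.42) on day 5, which made it the called member nearest the 2-fold threshold. H2ac18, also on chromosome 3, went the other way. Its signals were 589, 441 and 258 in control, day 1 and day 5 nerve, 367 and 481 in the DRG arrays and 328 in the cord. Day 5 nerve was its lowest array, 2.28-fold lower than control nerve (1.93 to 2.70). H2ac21 gave 163.5, 169 and 204 in the nerve and 119 to 135 elsewhere. H2ac8 was detected only in day 5 nerve (155) and H2ac6 only in control nerve (128).

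Over the H2A class, 6 of 11 probes were higher and 0 lower on day 1 (median log2 difference 1.34). On day 5, 8 of 12 were higher and 1 lower (median 1.95). The shares of all probes were 5.71% higher and 3.13% lower on day 1, and 5.66% and 4.55% on day 5. Of the 8 higher on day 5, 7 lay on chromosome 13 and 1 on chromosome 3. Between day 1 and day 5 nerve, H2ac7, H2ac10, H2ac11, H2ac12, H2ac15, H2ac22 and H2ac24 were at least 2-fold higher on day 5, from 2.04-fold (H2ac24, interval 1.78 to 2.33) to 2.67-fold (H2ac7, 2.27 to 3.13). These 7 of 38 histone probes stand beside 2.84% of all 15116 probes, and 0 lower beside 3.98%. By the bead intervals, 22 of 31 histone probes were higher on day 5 than on day 1 and 3 lower, beside 23.4% and 29.8% of all probes. H2ac24, H2ac12 (2.04-fold) and H2ac15 (2.06-fold) were just inside the threshold. The probes next below it were those of H2ac18 (1.71-fold lower, 1.46 to 1.997), H4c6 (1.70-fold higher, 1.32 to 2.17) and H3c13 (1.65-fold lower, 1.42 to 1.93), and H2ac20 was 1.48-fold higher (1.32 to 1.66).

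**Figure D2:**
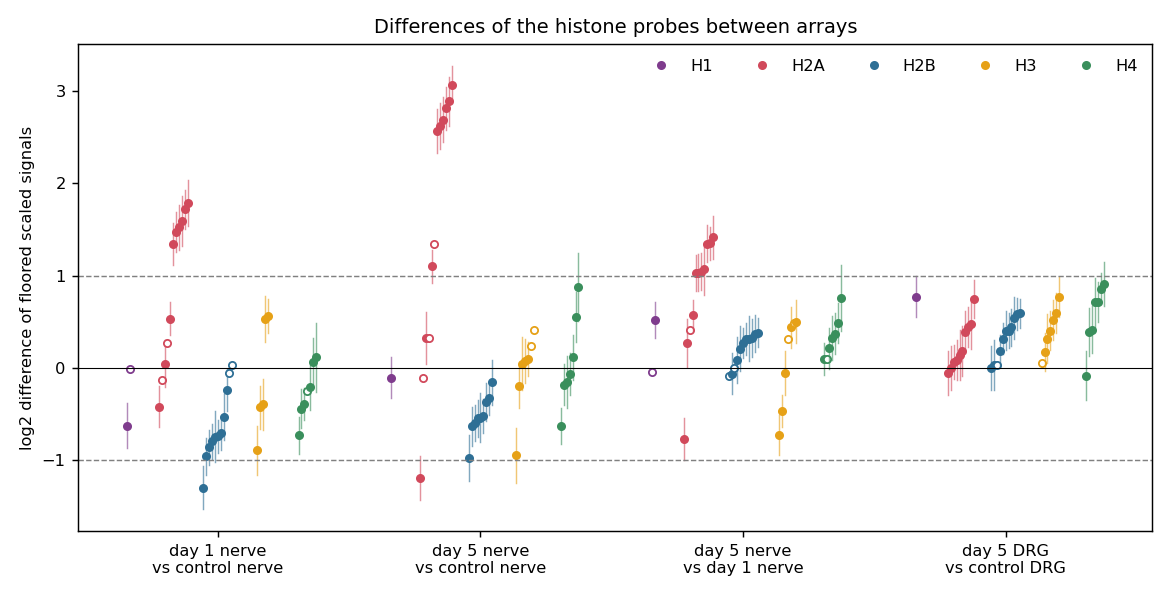
Log2 difference of floored scaled signals for each histone probe, by comparison and class; points are probes, vertical lines are 95% intervals from bead errors, open points mark a bound where 1 array did not detect the probe, and dashed lines mark a 2-fold difference. The higher calls in the nerve are H2A probes, and the H2B probes detected on both arrays lie below 0 on both days.

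H2B, the partner of H2A in the dimer, had lower signals in the injured nerve. Of 11 H2B probes, 0 were 2-fold higher and 1 lower on day 1 (median log2 difference -0.74). Of 9 on day 5, 0 were called (median -0.54). The shares of all probes were 5.71% higher and 3.13% lower on day 1, and 5.66% and 4.55% on day 5. The counts of H2B calls lie near those shares. H2bc18 gave 571 in control nerve, 233 on day 1, 289.8 on day 5, 277 in control DRG, 276.5 in day 5 DRG and 306 in the cord. Control nerve was its highest array, and it was 2.45-fold lower on day 1 (2.09 to 2.89). Its second probe was detected on no array. Among the 9 H2B probes detected in both nerve arrays, 9 lay below control by more than the bead interval on day 1, and 8 on day 5. Their ratios to control were 0.41 to 0.85 and 0.51 to 0.90. Of all probes detected on both arrays, 27.9% lay below by more than the bead interval on day 1 and 29.6% on day 5. H2bc14 gave 1189.8 in control nerve, 612.5 on day 1, 767.5 on day 5, 913 and 1375 in the DRG arrays and 712 in the cord, and at 1.94-fold lower (1.69 to 2.23) on day 1 it lay just outside the threshold. H2bc4, H2bc7, H2bc9, H2bc11, H2bc12 and H2bc15 were 1.45-fold to 1.82-fold lower on day 1, and in H2bc6 the signal was 165, 140.0 and 148 in the nerve arrays.

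The paired genes printed above went in opposite directions, which is why their regions were shown. Most detected H2A and H2B probes split in the same way. H2ac10, H2ac22 and H2ac24, in no pair found here, were also higher, so the split was not particular to pairs. In the H2ac7 pair, H2bc7 gave 3538 in control nerve, 2041 on day 1 and 2464 on day 5, while H2ac7 was 7.39-fold higher on day 5. In the H2ac11 pair, H2bc11 gave 2428, 1338 and 1662. In the H2ac12 pair, H2bc12 gave 1060.1, 633 and 730.1, and in the H2ac15 pair, H2bc15 gave 881, 528 and 683. In each of the 4 pairs both injured arrays lay above control for the H2A gene and below it for the H2B gene. H2ac11 was not detected in control nerve, and its day 1 difference is a bound of at least 1.20-fold. The pair H2ac8 and H2bc8 had only H2ac8 detected in the nerve, on day 5.

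**Figure D3:**
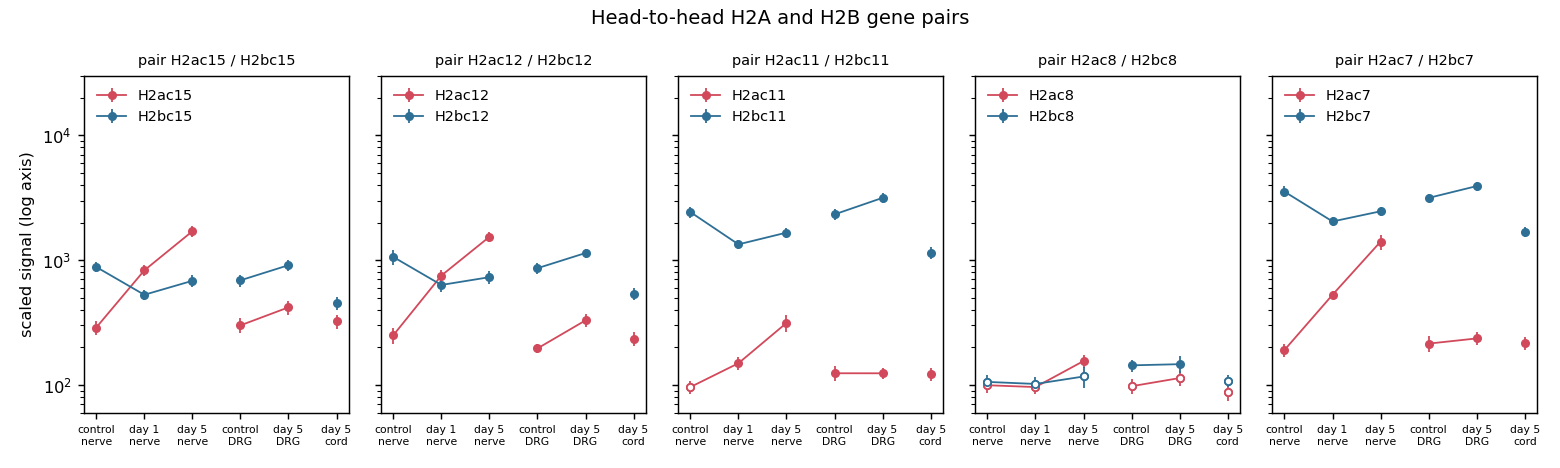
Scaled signal (log axis) of both genes of each head-to-head pair on the 6 arrays, H2A in red and H2B in blue; vertical lines are 95% bead intervals and open points were not detected. In 4 pairs the H2A signal is above control and the H2B signal below control in injured nerve; H2ac8 was detected only in day 5 nerve.

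H3 and H4 genes, whose products form the tetramer, had 0 probes 2-fold apart from control nerve on either day. Among all probes, 5.71% were higher and 3.13% lower on day 1, and 5.66% and 4.55% on day 5, so 0 lies near those shares. With neqc, which subtracts background, 1 H3 and 2 H4 probes were lower on day 1, and 1 H3 probe was lower and 1 H4 probe higher on day 5. The H3 median was -0.40 on day 1 and 0.07 on day 5, and the H4 median was -0.25 and -0.07. With 1 probe per gene the H3 median on day 1 was 0.07, and with neqc the H4 median on day 1 was -0.69. H3c13 gave 2259 in control nerve, 3260.3 on day 1, 1970.3 on day 5, 963 and 1381 in the DRG arrays and 812 in the cord. It was 1.44-fold higher on day 1 (1.21 to 1.72) and within the bead interval on day 5. The probes of H3c14 disagreed on day 1. One gave 1486, 2196 and 1586 in the nerve arrays, 1.48-fold higher on day 1 (1.30 to 1.67), and the other gave 302.5, 163 and 157, 1.86-fold lower (1.55 to 2.23). H3c4 and H3c6 were lower on day 1 (log2 difference -0.40 and -0.43) and near control on day 5 (0.05 and 0.07). H3c1 and 1 probe of H3c7 were detected in day 5 nerve but not in control nerve, at 165 and 146. The other H3c7 probes were detected on no array.

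Of the H4 genes, H4c8 gave 436 in control nerve, 263 on day 1, 281 on day 5, 592 and 1075 in control and day 5 DRG, and 380.1 in the cord. It was lower in both injured nerve arrays, 1.66-fold on day 1 (1.44 to 1.90) and 1.55-fold on day 5 (1.35 to 1.77). H4c6 differed from it, with 166, 179.8 and 305 in the nerve arrays, 1.84-fold higher on day 5 (1.43 to 2.37). H4c9 was also higher on day 5 (1.47-fold, 1.22 to 1.76). H4c4, H4c11, H4c12 and H4c18 had log2 differences between -0.44 and 0.11 on both days. H4c3 was detected only in the cord (124.5).

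H1f2 was the only H1 gene detected on every array. It gave 5322 in control nerve, 3450.0 on day 1, 4951 on day 5, 6164 in control DRG, 10527 in day 5 DRG and 2775 in the cord. Day 1 was 1.54-fold lower than control nerve (1.30 to 1.82), and the day 5 interval included no difference. H1f5 was detected only on day 1, at 123 against a floor of nearly the same signal. H1f1, H1f3 and H1f4 were detected on no array.

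In the DRG, the classes went the same way. No histone probe was 2-fold apart between day 5 and control DRG, beside 0.718% of all 14764 probes higher and 0.284% lower. The median log2 difference of 36 histone probes was 0.40, against -0.01 over all probes, and 32 were above 0 and 4 below. Of 34 probes detected on both arrays, 24 lay above by more than the bead interval and 0 below, while over all probes these shares were 16.8% and 19.5%. Class medians were 0.77 for the 1 H1 probe, 0.71 for H4, 0.40 for H2B, 0.40 for H3 and 0.16 for H2A. The folds that came nearest to 2 were those of H4c11 (251 to 472, 1.88-fold, interval 1.59 to 2.21), H4c8 (1.81-fold, 1.62 to 2.04), H1f2 (1.71-fold, 1.47 to 1.99), H3c6 (319 to 545, 1.71-fold, 1.47 to 1.98) and H2ac12 (1.68-fold). Spinal cord markers were higher in control DRG than in day 5 DRG, as given above. Among probes detected on all arrays, the cord was the lowest array for 6 of 9 H2B, 4 of 5 H3 and 1 of 1 H1 probes. It was the lowest for 0 of 9 H2A and 0 of 6 H4 probes. The lowest array was not counted over all probes, so these counts have no share to stand beside. The part of the cord RNA in the DRG differences was not tested.

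Taken by array, H2A and H2B differed in where their signal was highest. Day 5 nerve was the highest array for 8 of the 9 H2A probes detected on all arrays, and day 5 DRG for 8 of the 9 H2B probes and 5 of the 6 H4 probes. Day 1 nerve was the lowest array for 4 of the 6 H4 probes and 3 of the 9 H2B probes. The highest and lowest arrays were not counted over all probes.

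Other genes of DNA copying were read from lists beside the histones. S phase genes, which copy DNA or make its building blocks, had 5 of 44 probes higher and 0 lower on day 1 (median log2 difference 0.32) and 19 of 46 higher and 0 lower on day 5 (median 0.74). Uhrf1, which binds newly copied DNA and recruits a DNA methyltransferase, was 3.82-fold higher on day 1 and 8.44-fold on day 5. The replication helicase genes Mcm5 (2.39-fold and 4.52-fold) and Mcm6 (2.07-fold and 3.21-fold) were called on both days, and Mcm4 on day 5 (2.06-fold). Other detected Mcm6 probes gave 1.97-fold and 1.68-fold on day 1, uncalled, and 3.46-fold and 2.65-fold on day 5. Fen1, a nuclease that trims Okazaki fragments, was 2.40-fold and 2.97-fold higher, Cdt1, which loads the helicase, 2.33-fold and 3.09-fold, and the transcription factor gene E2f1 3.70-fold on day 5. Mitosis genes had 0 of 18 higher on day 1 (median 0.19) and 19 of 22 higher on day 5 (median 1.98), with 0 lower on either day. The brightest called on day 5 was Anln, an actin-binding protein of the cleavage furrow (2.59-fold, and 0.65 of control on day 1). Another Anln probe, not detected in control nerve, gave at least 1.12-fold on day 5, uncalled, and a further one was detected on no array. Next in brightness were Prc1 (16.8-fold), a protein of the spindle midzone, and Kif22 (5.08-fold), a spindle motor. The checkpoint gene Mad2l1 (2.80-fold), Cdk1 (9.30-fold), the kinase that starts mitosis, and Birc5 (6.98-fold) followed. On day 1, therefore, 6 of 11 H2A, 5 of 44 S phase and 0 of 18 mitosis probes were called higher. Over all probes, 5.71% were higher on day 1 and 5.66% on day 5, shares that also stand beside the lists below.

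Between day 1 and day 5 nerve, 7 of 47 S phase probes (median 0.40) and 19 of 22 mitosis probes (median 1.83) were higher and 0 lower. Over all probes, 2.84% were higher and 3.98% lower. In the DRG, 0.718% of all probes were higher and 0.284% lower. Of 18 mitosis probes there, 2 were higher (median 0.17), Prc1 at 2.86-fold and Kif22 at 6.64-fold. Of 41 S phase probes, 0 were called (median 0.01). The DRG histone median of 0.40 stood beside this S phase median.

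**Figure D4:**
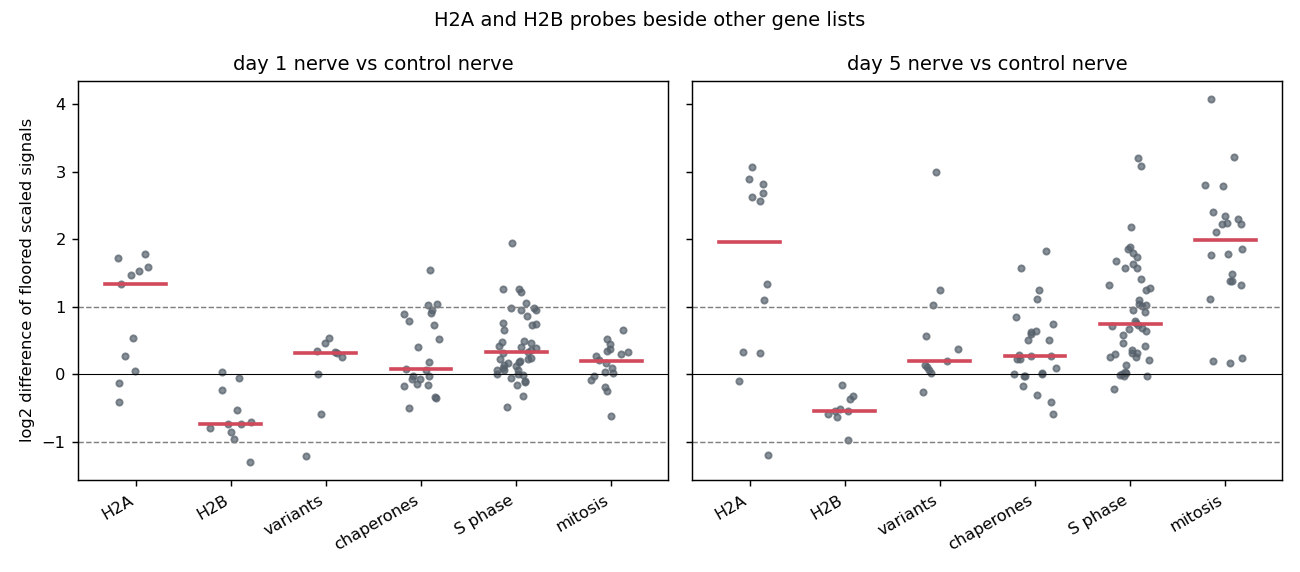
Log2 difference of each detected probe from control nerve on day 1 and on day 5, for H2A and H2B and for lists of histone variants, chaperones, S phase genes and mitosis genes; red bars are medians and dashed lines mark a 2-fold difference. On day 1 the H2A median is 1.34 and the mitosis median 0.19, and on day 5 they are 1.95 and 1.98.

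Replication-independent histone variants, which replace the core histones outside S phase or at special sites, had 0 of 9 probes higher and 1 lower on day 1 (median 0.32) and 3 of 11 higher and 0 lower on day 5 (median 0.20). Cenpa, the H3 variant of centromeres, gave 558 in control nerve, 811 on day 1 and 4452 on day 5, 7.97-fold higher on day 5. H2az1 gave 2173, 2580.4 and 5168 (2.38-fold), and H2ax, the variant phosphorylated at DNA breaks, gave 436, 543 and 890.0 (2.04-fold). The linker variant H1f10 was the lower probe on day 1, from 449.8 to 194. From day 1 to day 5, 3 of 11 were higher and 0 lower (median 0.56), and in the DRG 0 of 11 were called (median 0.11).

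Histone chaperones, which carry histones to DNA, had 3 of 23 probes higher on day 1 (median 0.07) and 4 of 26 on day 5 (median 0.27), with 0 lower on either day. Nasp, a chaperone of H3 and H4, was called on both days by 1 probe (2.03-fold and 2.15-fold). Another Nasp probe gave 1.66-fold and 1.81-fold, uncalled, and a further one was detected on no array. Chaf1b, a subunit of chromatin assembly factor 1, was also called on both days. It was not detected in control nerve and was higher by at least 2.07-fold and 3.55-fold. On day 5 Chaf1a (2.37-fold), another subunit of that factor, and Mcm2 (2.96-fold), a helicase subunit that binds histones, were also called. Daxx, the chaperone of variant H3.3, was 2.90-fold higher on day 1 and the 1 of 26 probes lower from day 1 to day 5 (median 0.12). In the DRG 0 of 22 were called (median -0.03). Genes of histone transcription and mRNA 3′ end processing had 0 of 12 probes called on day 1 (median 0.02), 0 of 11 on day 5 (0.13), 0 of 12 between the days (-0.14) and 0 of 12 in the DRG (0.02). Slbp, Casp8ap2, Hinfp, Eri1 and Cpsf2 of this list were detected on no array, and Lsm11 only in the cord. Changes in those genes could not be read. Over all probes, 5.71% were higher and 3.13% lower on day 1, so 0 of 12 lies near those shares.

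Markers of cells that enter an injured nerve were also higher there than in control nerve. The summed signal of 9 neutrophil probes was 1189.7 in control nerve, 29356 on day 1 and 5439 on day 5, and 4 of 5 detected probes were higher on day 1 and 3 of 4 on day 5. In the DRG it was 8928 in control and 7075 on day 5, both above day 5 nerve, with 0 of 5 higher or lower. The summed signal of 7 macrophage and monocyte probes was 9036, 21759.6 and 63181 in the nerve arrays, with 3 of 7 higher on day 1 and 6 of 7 on day 5. In the DRG it was 2809 in control and 5425 on day 5, with 2 of 5 higher. Lymphocyte markers summed to 472 to 536 on all arrays with 0 called. Each array detected only 0 to 2 of their 4 probes, so these sums lie near the floor and give no lymphocyte level. The erythroid markers Hba-a1 and Alas2 summed to 57282, 62818 and 60519 in the nerve arrays with 0 called. Which cells carried the histone RNA was not tested.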

How the data were processed

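Each of 6 conditions was hybridised to 1 Illumina MouseRef-8 v2.0 bead array. The authors deposited a non-normalized table with, per probe, the intensity (mean of its beads), the bead standard error, its bead number and a p-value of detection, and a processed intensity table whose arrays share the same quantiles. The methods describe a normalization to the median, and the submitters' notes name Agilent Feature Extraction 10.5.

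Each array was multiplied by 0.951 to 1.07 to give all arrays 1 median. Each array detected 50.9 to 54.5% of probes, with a median of 38 to 40 beads per probe. Precision is limited by the number of arrays. Probes carried 1 gene symbol in 23978 cases, several in 0 and none in 1719. All 55 histone symbols matched RefSeq. The calling rule was tested on simulated signals with known differences, which does not test differences between conditions. Named were all histone genes at least 2-fold apart in 1 of 4 comparisons, other detected members by value or range, and up to 6 of the brightest called genes of each list. The members and lists were chosen with earlier results of these data known. Alternatives were no scaling, quantile normalization, the deposited processed table, neqc of limma 3.58.1, a detection p under 0.01, no floor, a 1.5-fold threshold and 1 probe per gene. Python 3.11.15, pandas 2.3.3, numpy 2.4.6 and R 4.3.3 were used.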

Additional observations from a re-analysis of the deposited data

Results flagged for a closer look

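Between nerve and DRG at day 5, 9 histone probes differed from their control arrays in opposite directions, each beyond its bead interval. They lay below control in the nerve and above control in the DRG, and these differences between tissues were not tested. The same count was not made over all probes, so whether 9 is unusual cannot be read. Of all probes detected on both nerve arrays, 27.5% lay above and 29.6% below control beyond the bead interval. In the DRG these shares were 16.8% and 19.5%. The log2 difference in the DRG minus that in the nerve was 1.13 for H2bc4, 0.84 for H2bc7, 0.91 for H2bc9, 0.99 for H2bc11, 0.94 for H2bc12, 1.22 for H2bc14 and 0.77 for H2bc15. It was 1.49 for H4c8, which was -0.63 in the nerve and 0.86 in the DRG, and 1.58 for H2ac18, which was -1.19 and 0.39. Spinal cord markers were higher in control DRG (summed signal 2926) than in day 5 DRG (848), and their part in the DRG values was not tested.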

How the results depend on the processing

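The number of H2A probes at least 2-fold higher stayed at 6 on day 1 and 8 on day 5 under every alternative run. Of the summary values over all histone probes, 79 moved by less than the limit set for them and 13 moved further. A change of sign was not scored for these summary values. For single genes these counts were 176 and 24, and 0 reversed in a comparison where the gene was called. The number of histone probes lower on day 1 (1 as reported) was 2 with quantile normalization, 2 with the deposited processed table, 5 with neqc and 10 with a 1.5-fold threshold, and on day 5 (1 as reported) it was 2, 2, 3 and 6. From day 1 to day 5, 4 and not 7 were higher without scaling, and 2 were lower at 1.5-fold. In the DRG 4 were higher with neqc and 9 at 1.5-fold, against 0 as reported. The day 1 median became -0.54 with neqc, which subtracts background. Over all probes, the day 1 split of 848 higher and 465 lower was 1081 and 316 without scaling, 747 and 564 with quantile normalization, 746 and 587 in the deposited table, and 1231 and 1230 with neqc. The day 1 median over all probes moved from -0.01 to 0.12 without scaling. The H4 median on day 5, -0.07 as reported, was 0.01 without scaling and 0.11 with no floor, and on day 1, -0.25 as reported, it was -0.69 with neqc. The H3 median on day 1, -0.40 as reported, was 0.07 with 1 probe per gene, and the H1 median, -0.32 as reported, was 0.03 with no floor. No H3 or H4 probe was called as reported, while neqc called 1 H3 and 2 H4 lower on day 1, 1 H3 lower and 1 H4 higher on day 5, and 1 of each higher from day 1 to day 5. At 1.5-fold, 1 H4 probe was higher on day 5. The causes were not tested. No paired analysis was possible because each group had 1 array and no replicate numbers, and leaving out a replicate was likewise not possible. Signals near the floor limit the dim probes.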
